A study of Mus musculus with 9 samples.

Results

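The comparison described here sets the WWD mutant of Dnmt3a2 against wild-type Dnmt3a2 (WT) in mouse embryonic stem cells, CpG by CpG and along the distance from CpG-dense DNA. All groups are J1 embryonic stem cells at passages 7 to 10 with the Dnmt TKO background, the usual name for embryonic stem cells without the DNA methyltransferase genes Dnmt1, Dnmt3a and Dnmt3b. WT cells carried wild-type Dnmt3a2 and WWD cells carried the construct labelled WWD Dnmt3a2. TKO cells, for which the labels record no construct, give the background. A pair of further groups served for orientation only: R cells, with a construct labelled R Dnmt3a2, and C cells, again with none recorded. WT, WWD, R and C have 2 samples each and TKO has 1, but the labels tie 1 deposited table to both samples of a group. Each value below is therefore that of 1 table per group, taken as the pool of its samples, and no spread between samples can be given. The labels name no promoter for the constructs, no clone number and no measure of construct amount, so a difference in the amount of enzyme and the mutation itself cannot be told apart.

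Members were the nuclear CpG positions, each strand counted separately, with at least 10 reads in WT, WWD and TKO and with a TKO coverage of at least 0.5 times that of WT. They numbered 914286 of the 1511200 nuclear positions covered in both WT and WWD. Of the 1 kb tiles of the genome, 44684 held at least 5 members, of 72621 with at least 5 positions in both tables. A tile with 40 or more rows in the WT table is called CpG-dense below, and there were 9476. Rows hold at least 10 reads, so CpG-dense DNA with less coverage is not counted, and distance to it was not measured. Every position was placed by the distance from its own tile to the nearest CpG-dense tile: 0 kb (in such a tile), 1-2 kb, 3-5 kb, 6-10 kb or over 10 kb. Distance was counted in steps of 1 tile. The 1-2 kb class thus holds positions 1 to 2000 bp from the edge of a CpG-dense tile, and the 3-5 kb class begins at 2001 bp. Of the 67963 members at 1-2 kb, 20608 lay within 100 bp of that edge. Coordinates are those of the build mm9. Gene annotation of that build was not used here, so tiles are named by position only, and what lies in them is not stated.

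Dnmt3a places methyl groups on unmethylated CpGs, and Dnmt3a2 is its shorter isoform, the main form in embryonic stem cells. Its ADD domain binds the tail of histone H3 when lysine 4 of that tail is unmethylated, and in the absence of such a tail the same domain can fold back and hold the catalytic domain inactive. CpG-dense stretches of mammalian genomes, many of them CpG islands, usually carry methylated lysine 4 and little DNA methylation, whereas isolated CpGs between them are usually methylated. Without Dnmt1, the enzyme that copies methylation to the new strand at replication, methylation in these cells rests on what the construct adds. The residues changed in WWD are not stated in the labels.

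Depth ran from 133814232 read calls in TKO to 210550841 in R, a read call being 1 read at 1 CpG, with 196155033 in WT and 148992409 in WWD. At the members the median coverage was 133 reads in TKO, 136 in WT, 136 in WWD and 159 in R. Intervals in brackets are 95% intervals for counting error only. The labels name no molecular identifiers, so PCR copies count as reads and these intervals are likely too narrow. Mitochondrial CpGs, a guide to incomplete conversion, averaged from 0.0625% in R to 0.12% in WWD over each table's own positions. Methylation tables hold no expression markers, so the labelled cell type was not checked.

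WWD cells carried 25.7% of the methylation of WT cells at the members, and nearly every called difference was a fall. The mean level was 13.2% in WT, 3.39% in WWD, 13.3% in R, 0.26% in C and 0.171% in TKO. The interval of the share kept by WWD was 25.69% to 25.75%. With the TKO level taken off both, the share was 24.7%. With no condition on TKO coverage relative to WT, but at least 10 reads in WT, WWD and TKO, it was 42.1%. In WT 26.5% of the members were above 20% methylated and 7.92% were above 50%. In WWD these shares were 4.30% and 0.261%. No read with C was seen at 53.6% of the members in WWD, 42.7% in WT and 86.3% in TKO. In WWD 27.4% of the members lay above 0 and up to 5%, against 16.7% in WT and 13.4% in TKO.

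Two-sided Fisher's exact tests on the reads of the WWD and WT tables called 159803 members lower and 6 higher in WWD. A call needed a Benjamini-Hochberg adjusted p under 0.01 over all positions of both tables together with a change of 25 points or more. The lower ones were 17.5% of the members. Among all positions covered in both tables, 13.4% were called lower and 0.461% higher. At the lower members WWD minus WT had a median of -36.04 points. Of the tiles, 18528 (41.5%) were lower and 1 was higher, at an adjusted p under 0.01 and at least 10 points. Of all tiles with 5 positions or more in both tables, 48.7% were lower and 0.102% higher. These tests compare the reads of 2 tables and not conditions, and tile p-values are too small because a read that spans several CpGs is counted at each of them.

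**Figure D1:**
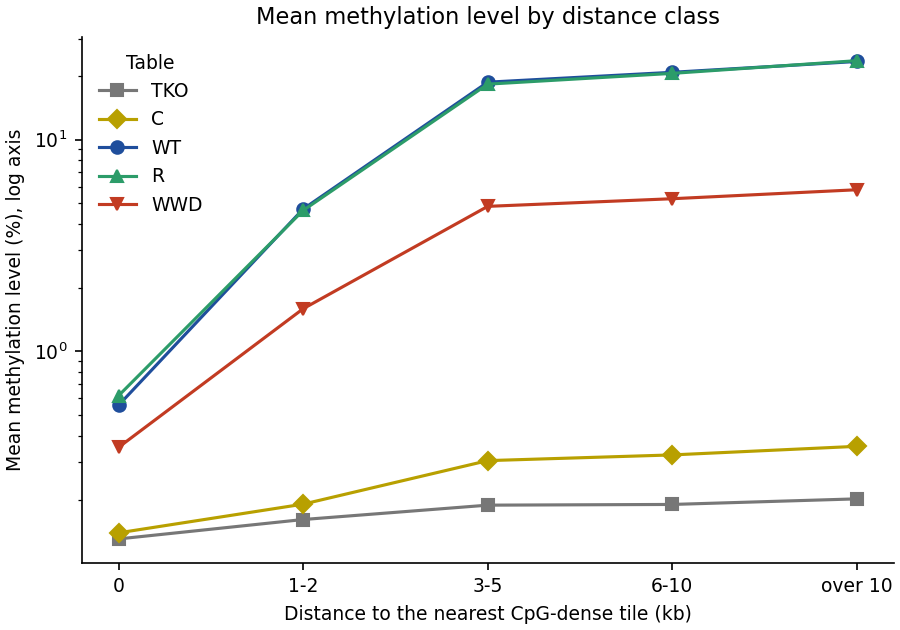
Mean methylation level (percent of reads with C, log axis) of the members in each distance class, 1 line per deposited table. WT and R rise from 0.558% and 0.619% in CpG-dense tiles to 23.4% and 23.6% beyond 10 kb, WWD rises from 0.353% to 5.80%, and TKO and C stay under 0.4%.

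Methylation rose with distance from CpG-dense tiles in WT, R and WWD, but it rose less in WWD. In CpG-dense tiles (344318 members) WT held 0.558%, WWD 0.353%, R 0.619%, C 0.139% and TKO 0.13%. At 1-2 kb (67963 members) WT held 4.71%, WWD 1.59%, R 4.63% and TKO 0.161%. At 3-5 kb (23769 members) the levels were 18.7%, 4.84%, 18.3% and 0.188% in the same order. At 6-10 kb (33159 members) they were 20.8%, 5.26%, 20.6% and 0.19%. Beyond 10 kb (445077 members) they were 23.4%, 5.80%, 23.6% and 0.201%. From the first class to the last, the largest step of WT and of WWD lay between 1-2 and 3-5 kb.

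WWD accordingly kept a larger share of the WT level the nearer a CpG lay to CpG-dense DNA. The share was 63.3% (62.8 to 63.7) in CpG-dense tiles and 33.8% (33.6 to 34.05) at 1-2 kb. It was 25.9% (25.8 to 26.1) at 3-5 kb, 25.3% (25.2 to 25.4) at 6-10 kb and 24.8% (24.77 to 24.83) beyond 10 kb. From the 3-5 kb class outward the share was nearly level. With the TKO level taken off, the shares were 52.1%, 31.5%, 25.2%, 24.6% and 24.1% from the nearest class to the farthest. The TKO background thus made up part of the share in CpG-dense tiles. Mitochondrial CpGs held 0.12% in WWD, 0.0675% in WT and 0.0771% in TKO, over each group's own positions. The TKO level does not take off a difference in conversion between WWD and WT, and its part was not tested. R, with no level taken off, had 110.9%, 98.4%, 97.9%, 98.8% and 100.9% of the WT level. With 1 table per group, the difference in share between distance classes has no test.

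**Figure D2:**
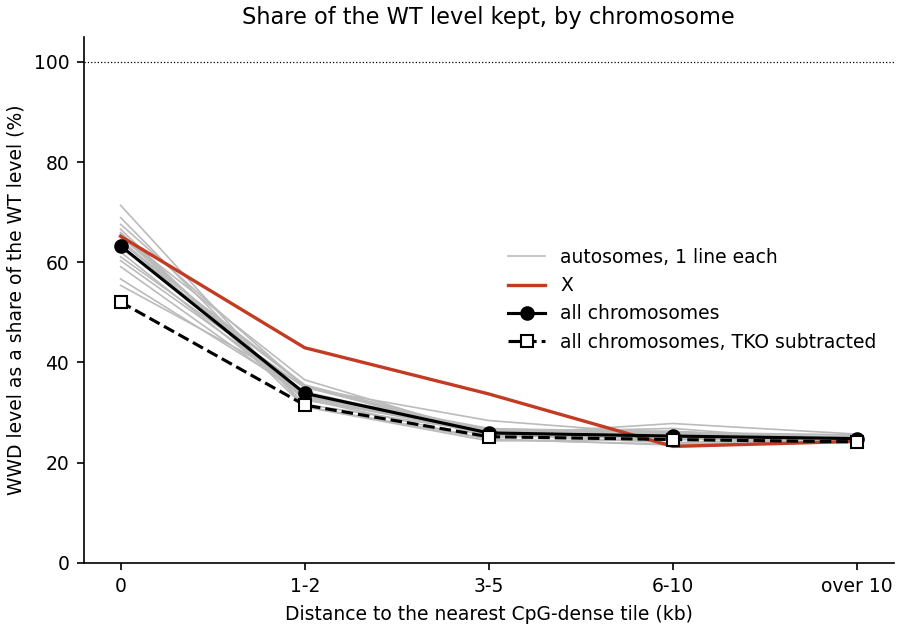
WWD level as a percent of the WT level in each distance class: black circles for all chromosomes, open squares after subtraction of the TKO level, thin grey lines for the 19 autosomes and a red line for X. Each line falls from the first class to the third; the X line is at 42.9% at 1-2 kb, where the autosomes lie between 31.1% and 36.5%.

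The fall of the share with distance was seen on each chromosome that had all 5 classes. On 20 of 20 chromosomes (the autosomes and X) the share at 0 kb was above that at 1-2 kb, and on 20 of 20 that at 1-2 kb was above that at 3-5 kb. Beyond this the order was mixed: the share at 3-5 kb was above that at 6-10 kb on 15 chromosomes, and that at 6-10 kb was above that beyond 10 kb on 13. In CpG-dense tiles the autosomes ranged from 55.4% on chromosome 12 to 71.4% on chromosome 16. Beyond 10 kb they ranged only from 24.01% on chromosome 9 to 25.7% on chromosome 3.

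The X chromosome had a higher share than any autosome at 1-2 kb and at 3-5 kb. At 1-2 kb it kept 42.9% (39.9 to 45.96) over 1350 members, with 2.91% in WT, 1.25% in WWD and 3.18% in R. At 3-5 kb it kept 33.7% (30.6 to 36.8) over 204 members, where the highest autosome had 28.4%. In CpG-dense tiles its share of 65.2% and beyond 10 kb its share of 24.2% lay among those of the autosomes, and at 6-10 kb its share of 23.2% lay just below the lowest of them. Its coverage was lower, with a median of 68 reads in WT at 1-2 kb against 138 over all chromosomes. Its WT level was also below that of every autosome in the classes where its share was highest. At 1-2 kb it was 2.91%, against 3.66% or more on the autosomes, and at 3-5 kb 13.5%, against 15.3% or more. The part of coverage and of the WT level in the X values was not tested. The Y chromosome had 252 members, all beyond 10 kb, and kept 22.4% (20.1 to 24.6).

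CpG-dense tiles were nearly free of methylation in every table, and WWD lay below WT mainly in the more methylated of them. No read with C was seen at 77.9% of their members in WT, 80.6% in WWD and 89.2% in TKO. Of 9454 tested CpG-dense tiles, 1220 had a mean above 1% in WT, 717 in WWD, 1351 in R and 11 in TKO. Above 5% there were 197 in WT, 37 in WWD, 220 in R and 0 in TKO. Only 25 of the 9454 tiles (0.264%) were called lower in WWD and 0 higher. WWD lay below WT in 58.8% of these tiles and above it in 40.8%. The call threshold of 10 points is above the WT level of nearly all of them.

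The R table, which is neither side of the comparison, was used to sort CpG-dense tiles by methylation. In the 4676 tiles with R at 0 to 0.25%, WT held 0.176%, WWD 0.177% and TKO 0.127%, and WWD was the higher of the pair in 50.3% of them. In the 1193 tiles with R over 0.5 to 1%, WT held 0.556% and WWD 0.411%. In the 1131 tiles with R over 1 to 5%, WT held 1.85% and WWD 0.977%, a share of 52.8%. In the 206 tiles with R over 5 to 20%, the levels were 7.81% and 3.13%, and in the 14 with R over 20% they were 29.9% and 10.2%, a share of 34.1%. WWD was above WT in 0 of these last 220. The share of 63.3% for CpG-dense DNA as a whole thus covers tiles near the TKO background and methylated tiles with shares of 34.1% to 52.8%.

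The share followed no steady order with the length of the CpG-dense stretch. Single CpG-dense tiles, 6409 of them, kept 61.9% (61.4 to 62.4) of the WT level. Pairs of adjacent ones kept 67.2% (66.2 to 68.2) and the 131 runs of 3 or more kept 62.9% (60.8 to 64.9). WT held 0.588%, 0.478% and 0.623% in these.

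A few CpG-dense tiles were well methylated in WT. The tile with the largest fall spanned 30687001 to 30688000 of chromosome 12, where WT held 40.2%, WWD 11.1%, R 38.1%, C 0.386% and TKO 0.0497% over 36 members. On chromosome 11 from 115662001 to 115663000, WT held 33.4%, WWD 8.44%, R 36.5% and TKO 0.342% over 17 members. In these tiles, picked for their large falls, WWD was far above TKO and kept 27.5% and 25.2% of the WT level. The highest WWD level in a CpG-dense tile was 17.7%, on chromosome 11 from 3050001 to 3051000, with 39.7% in WT and 43.1% in R. It rests on 8 members with very deep coverage, 21696 read calls in WT. The next highest was 14.3% on chromosome 13 from 45663001 to 45664000, with 37.8% in WT over 19 members. These last tiles, picked for a high WWD level, kept 44.5% and 37.8% of the WT level. All 4 tiles were called lower, also with counts divided by the number of members.

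**Figure D3:**
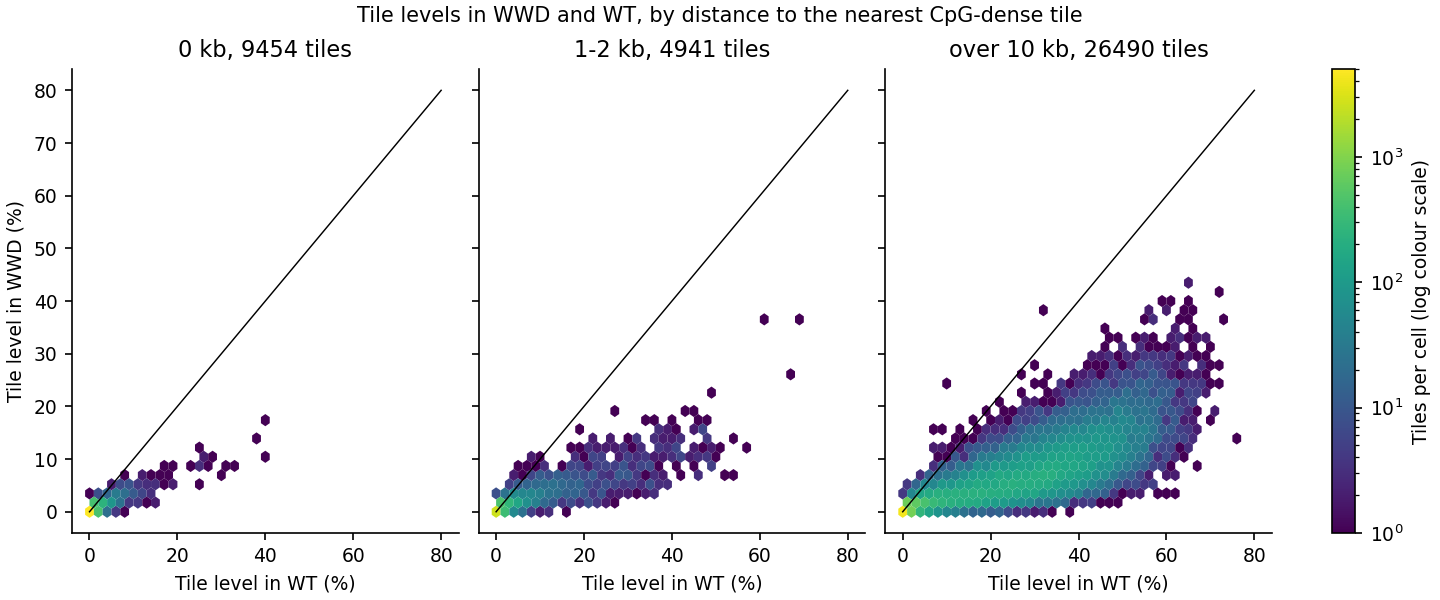
Tile level in WWD against tile level in WT (percent, mean over the members of a 1 kb tile) in CpG-dense tiles, at 1-2 kb and beyond 10 kb; colour counts tiles on a log scale and the black line marks equal levels. Most tiles lie below the line in each panel; WT levels reach 40.2% in CpG-dense tiles and 76.2% beyond 10 kb, and WWD levels 17.7% and 43.9%.

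The flanks of CpG-dense tiles were where WT gained methylation most steeply and where the share kept by WWD fell. Measured in bp from the edge of the nearest CpG-dense tile, the first 100 bp held 1.08% in WT and 0.562% in WWD, a share of 51.9% (50.8 to 52.96). From 201 to 300 bp the levels were 2.19% and 0.941%, a share of 42.9%. From 401 to 500 bp they were 5.3% and 2.06%, a share of 38.8%. At 751 to 1000 bp WT had reached 10.6% and WWD 3.32%, a share of 31.4%. At 1501 to 2000 bp the levels were 16.5% and 4.4%, a share of 26.7% (26.3 to 27.1). Farther out WT still rose, to 24.6% at 50001 to 100000 bp, and WWD rose with it to 6.23%, so that the share stayed at 25.3% to 25.4% from 3001 to 100000 bp. Beyond 100000 bp, where the members lay in tiles with a median of 6 WT rows, it was 24.06%. R followed WT along the whole flank, between 96.2% and 106.4% of its level up to 100000 bp.

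**Figure D4:**
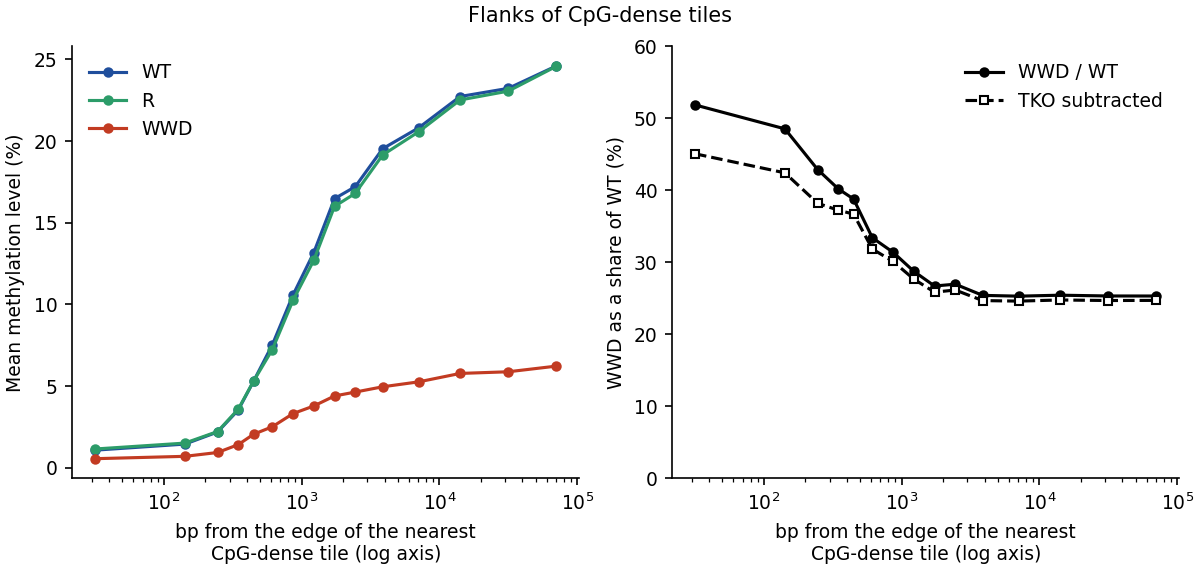
Left, mean level (%) of WT, R and WWD at members outside CpG-dense tiles by distance in bp from the edge of the nearest such tile (log axis, points at the geometric middle of each bin). Right, WWD as a share of WT, before (filled) and after (open) subtraction of TKO: from 51.9% in the first 100 bp to 25.4% at 3001 to 5000 bp, and level beyond.

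At 1-2 kb from CpG-dense tiles, 479 of 4941 tiles (9.69%) were lower in WWD, with a median WWD minus WT of -19.1 points among them, and 0 were higher. In the tile of chromosome 10 from 79936001 to 79937000 the fall was largest, with 53.7% in WT, 7.88% in WWD, 52.9% in R and 0.13% in TKO over 6 members. On chromosome 19 from 4102001 to 4103000, WT held 57.8%, WWD 12.6%, R 51.5% and TKO 0.413% over 9 members. The highest WWD levels of the class lay on chromosome 3 from 151827001 to 151828000, with 36.4% in WWD, 68.8% in WT and 52.4% in R, and on the X chromosome from 50340001 to 50341000. The X tile held 36.1% in WWD, 60.4% in WT and 67.4% in R over 5 members. Fisher's exact test gave an adjusted p of 2.25e-07 on the summed reads and of 0.0554 with counts divided by the number of members, which takes off repeated and independent reads alike.

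At 3-5 kb, 760 of 1586 tiles (47.9%) were lower in WWD, and at 6-10 kb 1178 of 2213 (53.2%), with a median WWD minus WT of -22.7 and -23.8 points among these lower tiles. In the first of these classes the largest falls were both on chromosome 11. From 117123001 to 117124000 WT held 62.2%, WWD 14.7% and R 53.5%, and from 78005001 to 78006000 WT held 61.1%, WWD 14.8% and R 55.9%. WWD was highest on chromosome 11 from 116512001 to 116513000, at 33.3% against 61.9% in WT, and on chromosome 17 from 27787001 to 27788000, at 32.6% against 60.8%. At 6-10 kb it was the tile of chromosome 12 spanning 114369001 to 114370000 that fell most, where WT held 58.2%, WWD 6.20% and R 52.1%. On chromosome 4 from 137065001 to 137066000 WT held 62.7% and WWD 12.9%. WWD was highest on chromosome 13 from 102456001 to 102457000, at 33.2% against 63.3% in WT, and on chromosome 5 from 118417001 to 118418000, at 33.2% against 66.1%. In these 8 tiles TKO held at most 0.622%.

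Beyond 10 kb lay most of the lost methylation: 141927 of the 159803 lower members and 16086 of the 18528 lower tiles. There 31.9% of members and 60.7% of 26490 tiles were lower. In WT 47.8% of the members of this class were above 20% methylated, against 7.76% in WWD. The deepest fall lay in the tile spanning 111281001 to 111282000 of chromosome 10, where WT held 76.2%, WWD 14.6%, R 56.2% and TKO 0% over 5 members, with 161 read calls in WT. On chromosome 11 from 76355001 to 76356000, WT held 62.7%, R 52.9% and WWD 3.18% (TKO 0.588%), the lowest share among the named tiles, 5.07%. The highest WWD level of any tile was 43.9%, on chromosome 4 from 42100001 to 42101000, with 65.8% in WT and 62.3% in R. On chromosome 14 from 95212001 to 95213000, WWD held 42.5%, WT 64.7% and R 81.1%. With only 133 read calls in WT, this tile had an adjusted p of 1.56e-05 by Fisher's exact test and of 0.267 with divided counts.

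Tiles that were methylated in R differed widely in how much WWD kept. Of 16297 tiles with R at 20% or more, the median share was 25.5% and the middle of the distribution reached from 18.4% to 33.9% (quartiles). WWD kept over 50% of the WT level in 689 of them and under 10% in 775, and it was above WT in 8. Shares of single tiles also carry counting error, and its part in this spread was not tested. The median share was 23.8% where R was 20 to under 40%, 28.2% at 40 to under 60% and 36.2% at 60% or more. Across all 44684 tiles Pearson's r was 0.866 between WWD and WT levels and 0.982 between R and WT levels. Tiles of 1 table share its depth and base composition and are not replicates.

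The distance trend was smaller between tiles of similar methylation level. Where R was over 20%, WWD kept 34.1% in the 14 CpG-dense tiles, 28.2% in 326 tiles at 1-2 kb and 26.4% in 614 tiles at 3-5 kb. It kept 26.3% in 991 tiles at 6-10 kb and 27.2% in 14352 tiles beyond 10 kb. The mean R level of these tiles was not the same, rising from 30.6% in CpG-dense tiles to 36.2% beyond 10 kb. With R at 20 to under 40%, the shares were 33.02% (13 tiles), 27.6%, 24.95%, 24.6% and 25.1% from the nearest class to the farthest. Where R was over 5 to 20%, the shares were 40.04%, 34.7%, 32.2%, 30.8% and 27.6% from the nearest class to the farthest. Where R was over 1 to 5%, they were 52.8%, 53.5%, 48.8%, 48.4% and 46.8%. At 1% or less in R the shares lay between 69.1% and 101.03% with no steady order, at WT levels of 0.176% to 0.708%. Within a distance class the share thus fell from 89.2% or more with R up to 0.25% to between 26.3% and 34.1% above 20%. With R up to 0.25%, TKO held 0.12% to 0.134%, against 0.176% to 0.243% in WT. Above 20% the share rose again with R. Beyond 10 kb it was 25.1% with R at 20 to under 40%, 29.3% at 40 to under 60% and 37.9% at 60% or more.

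Among single positions the pattern with the R level had another shape. At positions beyond 10 kb with R over 5 to 20%, WT held 13.5% and WWD 2.11%, a share of 15.6%, the lowest of the 6 levels of R. With R over 20 to 40% the share was 17.3%, and with R over 40 to 60% it was 24.8%. It reached 38.4% with R over 60 to 80% and 54.4% where R exceeded 80%, at 74.5% in WT and 40.5% in WWD. At the same R level, positions in CpG-dense tiles kept more: 40.9% (40.05 to 41.8) over 1036 members with R over 20 to 40%, and 45.5% (43.9 to 47.03) over 207 with R over 40 to 60%. At 1-2 kb the shares were 26.5% and 30.4%. R at such positions did not stand for the same WT level in each class: with R over 20 to 40%, WT held 23.6% in CpG-dense tiles, 28.2% at 1-2 kb and 29.8% beyond 10 kb. WWD itself held 9.67%, 7.49% and 5.16% there, so its own level was higher near CpG-dense DNA. The shares at this R level were also taken with at least 10 TKO reads but no condition on TKO coverage relative to WT. They were then 64.9% in CpG-dense tiles, 43.7% at 1-2 kb and 23.6% beyond 10 kb.

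CpG density, taken as the number of WT rows in the tile, went with the share also far from CpG-dense tiles. Rows are positions with at least 10 reads in WT, so a tile with few rows can hold further CpGs. Beyond 10 kb, positions in tiles with 1-4 WT rows kept 21.7%, with 5-9 rows 25.6%, with 10-19 rows 28.7% and with 20-39 rows 36.9%. WT held 29.02%, 28.9%, 20.7% and 4.67% in these. With at least 10 TKO reads but no condition on relative TKO coverage, the shares were 38.7%, 40.1%, 43.3% and 54.6% in the same order. The sparsest classes then lay closer together. At matched R levels the order was the same at the members. With R over 40 to 60%, the shares were 22.02%, 25.6%, 28.8% and 35.5% from the sparsest to the densest class, at WT levels of 47.3%, 47.4%, 46.8% and 45.4%. With R over 60 to 80% they were 35.4%, 39.5%, 42.2% and 45.7%. With no condition on relative TKO coverage the order did not hold in the most methylated positions. The shares were then 57.3%, 56.5%, 59.9% and 64.6% with R over 60 to 80%, and 85.4%, 84.2%, 84.4% and 84.1% with R over 80%. At the members with R over 40 to 60%, WWD itself held 10.4% in the sparsest class and 16.1% in the densest.

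**Figure D5:**
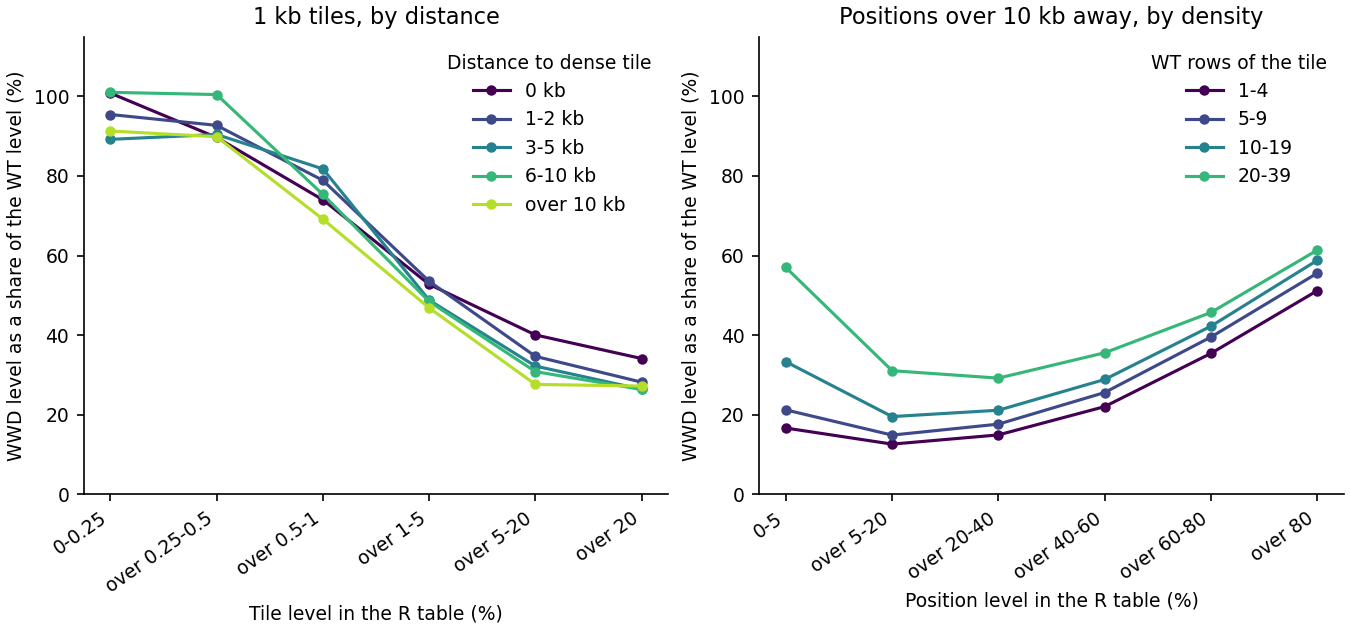
WWD level as a percent of the WT level. Left, 1 kb tiles sorted by their level in R, 1 line per distance class: the lines run close together and fall from 89.2% or more to between 26.3% and 34.1%. Right, members beyond 10 kb sorted by their own level in R, 1 line per number of WT rows in the tile: the line of 20-39 rows lies above that of 1-4 rows at each level.

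Over all members of a density class, the share was higher at 1-2 kb than farther out and nearly level beyond. In tiles with 5-9 WT rows the share was 30.3% at 1-2 kb, 25.6% at 3-5 kb, 25.4% at 6-10 kb and 25.6% beyond 10 kb, with 10.3%, 25.4%, 26.9% and 28.9% in WT. In tiles with 10-19 rows it was 36.7%, 28.5%, 27.98% and 28.7%, and in tiles with 20-39 rows 47.7%, 38.9%, 36.2% and 36.9%. In tiles with 1-4 rows it was 25.5% and then 21.7%, 21.9% and 21.7%. The class at 1-2 kb also had the lowest WT level at each density. Among tiles with R at 20% or more, the median of the shares of single tiles was taken instead. With 10-19 rows it was 26.02% at 1-2 kb (117 tiles), 24.8% at 3-5 kb, 25.1% at 6-10 kb and 26.9% beyond 10 kb. With 20-39 rows it was 29.5% (25 tiles), 28.7%, 25.4% and 30.3% in the same order. In these denser classes 1-2 kb thus lay above 3-5 kb and 6-10 kb, but not above the farthest class. With 5-9 rows the median was 27.4% (184 tiles), 24.2%, 24.1% and 24.7%.

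Rises in WWD were few among the members: 0.000656% were called higher, against 0.461% of all positions covered in both WT and WWD. Nearly all of the 6962 rises among all positions thus lay outside the coverage conditions. For tiles the shares called higher were 0.00224% and 0.102%. The 6 members called higher were chosen by their values and are given as such. A CpG on chromosome 4 at 66436138 held 44.4% in WT, 73.5% in WWD and 56.9% in R, and one on chromosome 19 at 24290740 held 37.06%, 64.04% and 51.6%. On chromosome 4 at 133972589 the levels were 24.2%, 50% and 31.6%, and on chromosome 1 at 93241837, in a CpG-dense tile, 9.2%, 36.4% and 16.3%. On chromosome 15 at 66872143 they were 3.12%, 31.6% and 5.88%, and on chromosome 16 at 15085080, in a CpG-dense tile, 0%, 26.3% (19 reads) and 0%. TKO held 0% at all 6. In the first 5 of them R lay between WT and WWD. Among tiles with at least 5 members, the only one called higher was on chromosome 11 from 49403001 to 49404000. This tile held 10.5% in WT, 23.5% in WWD, 18.5% in R and 0% in TKO over 7 members. Fisher's exact test gave it an adjusted p of 2.75e-04 on summed reads and of 0.375 with divided counts.

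Of the settings tried, the condition on relative TKO coverage moved the shares kept by WWD most. Members with a TKO coverage of 0.5 to under 0.75 times that of WT kept 26.99% of the WT level, and from 0.75 to under 1, 1 to under 1.5 and 1.5 or more the shares were 25.45%, 25.5% and 25.8%. All 596914 positions left out, among them those with under 10 TKO reads, kept 76.9%. Of those with at least 10 TKO reads, the ones at 0.25 to under 0.5 times kept 48.6% and the ones under 0.25 times 75.8%. In the last of these the median coverage was 15 reads in TKO, 25 in WWD and 114 in WT, and TKO itself held 1.58%. Just inside the condition, at 0.5 to under 0.6 times, WT held 10.03% and WWD 2.89%. Just outside, at 0.4 to under 0.5 times, they held 10.08% and 3.57%. With no condition on relative coverage, but still at least 10 reads in WT, WWD and TKO, the share was 42.1%. By distance it was then 95.3%, 55.7%, 43.9%, 42.4% and 40.6%, in the same order of classes. The fall with distance also stood within each coverage class of the members: at 1 to under 1.5 times, for example, the share was 60.2% in CpG-dense tiles and 24.7% beyond 10 kb. The part of coverage in the WWD values at positions left out was not tested. At the other threshold, tiles with 35 to 39 WT rows held 1.72% in WT and 0.813% in WWD, and those with 40 to 44 rows 1.1% and 0.588%.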

How the data were processed

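Reduced representation bisulfite sequencing reads CpGs near MspI sites; DNA was cut with MspI and size-selected before bisulfite treatment, per the labels' protocols. Bismark, methylKit and mm9 are named in the submitters' processing notes, without versions or order. For each CpG position and strand the authors deposited a read count, named coverage in the file headers, and the percent of those reads with C. No position in the tables used has under 10 reads. The samples' labels name 5 of the deposited files; 3 value columns of the other file belong to no sample and were not used. Methylated reads were recovered as coverage times percent, rounded.

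Levels are means of the percent over positions, and a share is the WWD mean over the WT mean. Counting intervals (95%) used the binomial variance of each position. Fisher's exact tests (two-sided) with Benjamini-Hochberg adjustment ran over all 1511200 positions and over all tiles, in Python 3.11.15 with numpy 2.4.6 and numba 0.67.0, and were checked on simulated reads. Both numbered samples of a group share a table, so no test between samples was possible. In each distance class, the 2 tiles called lower with the largest fall and the 2 with the highest WWD level are named, and over all classes up to 3 called higher. The members, classes and alternatives were chosen with earlier results of these data known. The bp profile, stretch lengths and coverage classes were added after values were seen, as were the alternatives for shares by R level and density. Sequences were not printed, since the sequence tables at hand belong to another build.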

Additional observations from a re-analysis of the deposited data

How the results depend on the processing

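The order of the classes held in all 10 alternatives: the share kept by WWD was highest in CpG-dense tiles and second at 1-2 kb. A coverage minimum of 20, autosomes only, or leaving out the top 1% of coverage kept the shares of all members and of the distance classes within their intervals. The other shares follow in the order all members, 0, 1-2, 3-5, 6-10 and over 10 kb. No condition on relative coverage, with at least 10 TKO reads kept as a condition, gave 42.1%, 95.3%, 55.7%, 43.9%, 42.4% and 40.6%. This setting is called no depth condition below. A depth condition by C coverage gave 28.3%, 66.6%, 37.1%, 28.6%, 27.8% and 27.4%. Means over tiles gave 28.2%, 60.4%, 36.1%, 28.4%, 27.7% and 27.6%, and TKO subtraction 24.7%, 52.1%, 31.5%, 25.2%, 24.6% and 24.1%. Pooled reads gave 26.2%, 55.5%, 34.1% and, beyond 10 kb, 25.07%, the rest staying within their intervals. From the 0 kb class on, dense tiles from 30 WT rows gave 55.8%, 31.6%, 25.5%, 24.8% and 24.6%, and from 60 rows 71.8%, 37.3%, 26.6%, 25.6% and 25.1%.

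Lower positions numbered 263043 at 10 points and 56384 at 40 points. Higher positions numbered 79 and 0 there, 14 at an adjusted p under 0.05, 145 with the condition by C coverage and 3181 with no depth condition. Lower tiles numbered 2318 with 10 positions per tile, fewer tiles being tested, 12309 at 20 points and 28639 with no depth condition, more being tested. Higher tiles numbered 0, 0 and 32 in the same order, and 0 with divided counts, which left 16823 lower. The cause of each shift was not tested unless stated. Of the 21 named tiles, 3 lost their call with divided counts and 1 at 20 points, and none changed direction. No replicate could be left out, and no paired analysis was possible because both numbered samples of a group share 1 table.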

Other observations

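Spacing between CpGs went with the share kept by WWD beyond 10 kb from CpG-dense tiles. Where the nearest covered CpG on the same strand lay 2-5 bp away, WT held 14.96%, WWD 4.69% and R 15.5%, a WWD share of 31.4% (31.3 to 31.5). At 6-10 bp the share was 28.7%, at 11-20 bp 27.3% and at 21-35 bp 25.1%. Where the nearest covered CpG was over 35 bp away, WT held its highest level, 27.3%, WWD held 5.46% and the share was 20.02% (19.98 to 20.07). WWD was highest at intermediate spacing, 6.57% at 11-20 bp and 6.54% at 21-35 bp. TKO rose over the same classes from 0.1% to 0.301%. Spacing and the number of rows in the tile go together, and their parts were not separated. CpGs not covered by reads are missed.

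WWD lay below WT alike on both strands. Forward-strand members held 13.2% in WT and 3.4% in WWD, and reverse-strand members 13.2% and 3.39%, so that WWD kept 25.8% and 25.6%. At 88861 CpGs read on both strands, the strands differed on average by 5.997 points in WT and by 6.39 in R, against 3.10 in WWD. The Pearson correlation between the strands across these CpGs was 0.740 in WT and 0.716 in R, against 0.362 in WWD. The mean level of these CpGs on the forward strand was 9.44% in WT and 2.66% in WWD; the part of the lower level and of counting error in the lower correlation was not tested.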
